A study of Saccharomyces cerevisiae with 4 samples.

Results

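Eisosomes are protein assemblies on the inner face of the yeast plasma membrane that hold it in furrows. The furrow membrane, called the membrane compartment of Can1 (MCC), gathers nutrient permeases and small tetraspan proteins. The coat is built from the banana-shaped BAR proteins Pil1 and Lsp1, and the compartment is known as a store of membrane that responds to stretch and to sphingolipid supply. A total of 10 genes of this compartment were followed, taken from the value table by their open reading frame (ORF) names among 6207 ORFs. They were SUR7, FMP45, YNL194C and PUN1 of the SUR7 family, the coat genes PIL1 and LSP1, NCE102 and its relative FHN1, and the lipid-binding pair SLM1 and SLM2. No measured value entered the choice of these names, although earlier results of these data were known when they were chosen.

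The study set wild-type Saccharomyces cerevisiae treated with Zymolyase 100T, an enzyme preparation that digests wall glucan, against the untreated portion of the same culture. Both portions grew in rich medium (YEPD) at 24 °C after 2 h 30 min of regrowth, and the treated one received 5 units/ml for 3 h. RNA of 2 cultures went onto 4 two-colour arrays with the dyes swapped. Arrays 1 and 3 had the treated RNA in Cy3, and arrays 2 and 4 had it in Cy5. The labels give neither strain background, mating type nor the pairing of arrays with cultures, and nothing says whether the cultures were started from separate colonies.

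The deposited values are log ratios of the channels with no stated base or numerator, and they were read as log2. They were turned for the dye swap and signed so that SLT2, a kinase gene that acts in cell wall integrity signalling, is positive (2.25 ± 0.11, SD of 4 arrays). Positive values therefore mark the side of SLT2 and negative values the opposite side, and which side is higher in treated cells is not settled by the labels. Turning every sign together would exchange the sides and leave each size and test as it is. Ratios carry no transcript level, so neither the order of abundance among members nor the presence of cell type markers could be read from them. No intensities were used, so signal over background is unknown, and precision is limited by the 2 cultures behind the 4 arrays. Near-identical genes may share signal.

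Of the 10 members, 7 had a value on all 4 arrays and entered the test. SLM2 had values on 3 arrays, and YNL194C and FHN1 had none on any array. Both of these are members of families in which a relative was measured, so nothing is shown here for FMP45's closest relative YNL194C or for the NCE102 relative FHN1. The 7 tested members had mean log2 ratios from -0.55 to 1.77 with a median of 0.085, against a median of -0.032 over all 4543 ORFs tested. The member at the median was SLM1, whose arrays had opposite signs in the dye orientations, so little is read from this median.

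Among the 7, PUN1 and FMP45 passed the test on the side of SLT2, SUR7 passed it on the opposite side, and 4 did not pass. Over all ORFs tested, 4.56% passed on the side of SLT2 and 1.39% opposite to it, 5.94% in all. The calls thus lay within the SUR7 family, on both sides, and none of the coat, NCE102 or SLM genes passed. The test was limma on culture averages with Benjamini-Hochberg adjustment over 4543 ORFs at 0.05, and the larger p of both possible pairings of arrays was kept. Positive on all 4 arrays were 3 members, PUN1, FMP45 and PIL1, and SUR7 was negative on all 4, as were 13.1% and 15.3% of all ORFs tested.

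**Figure D1:**
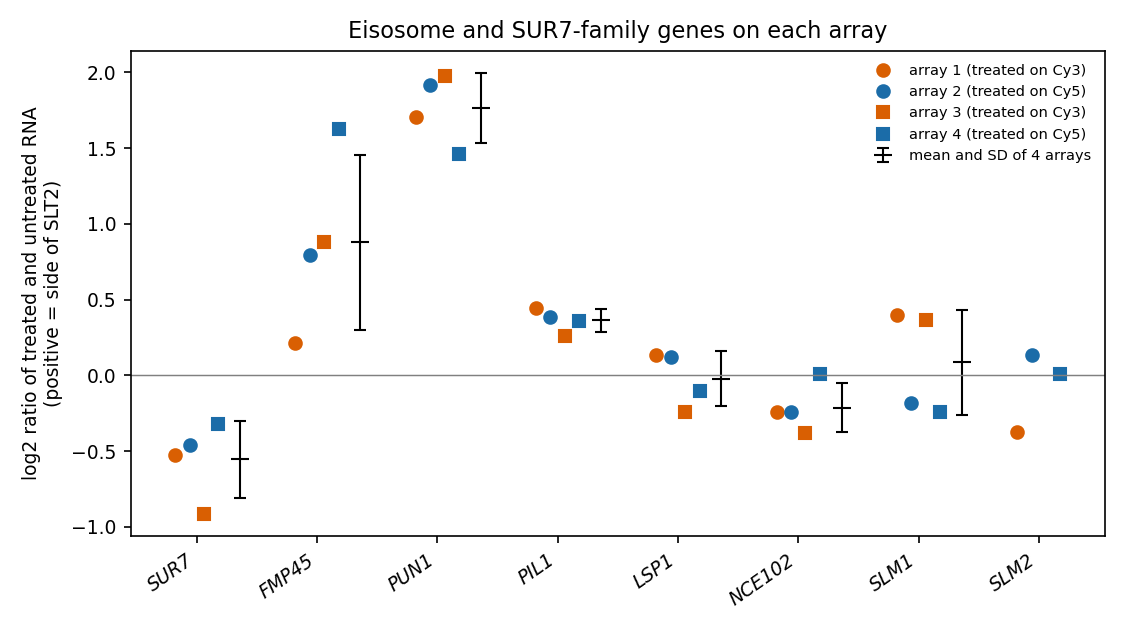
Turned log2 ratio (vertical axis, positive on the side of SLT2) of the 8 members with values, 1 point per array, orange for treated RNA on Cy3 and blue for Cy5, with the mean and SD of 4 arrays where all were measured. PUN1 lies between 1.46 and 1.98 on all arrays, SUR7 lies below 0 on all of them, and SLM1 divides by dye.

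PUN1 (YLR414C) encodes a plasma membrane protein of the SUR7 family that is known from work on nitrogen limitation and on wall integrity. Its log2 ratio was 1.71 on array 1, 1.91 on array 2, 1.98 on array 3 and 1.46 on array 4. All 4 arrays lay far to the side of SLT2, and the arrays of each dye overlapped those of the other. The mean was 1.77 ± 0.23 (SD of 4 arrays, n = 2 cultures), which is a 3.40-fold difference between treated and untreated cells (95% interval 1.49 to 2.04 on the log2 scale, adjusted p = 0.0001017 in limma). PUN1 stood at rank 23 of 4543 ORFs by its mean, and at rank 22, 26, 18 and 54 on arrays 1 to 4. It was the member with the largest ratio, and it passed the test in each of the 13 alternative settings run. In the settings with a single pairing of arrays this was fixed in advance, because the test kept the larger p of both pairings.

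FMP45 (YDL222C), which encodes a tetraspan protein of the MCC known from sporulation and from stationary cells, varied more. Its log2 ratio was 0.22 on array 1, 0.79 on array 2, 0.88 on array 3 and 1.62 on array 4. Every array lay on the side of SLT2, with array 4 highest and array 1 lowest. The mean was 0.88 ± 0.58 (SD of 4 arrays, n = 2 cultures), a 1.84-fold difference (95% interval 0.47 to 1.29, adjusted p = 0.02488 in limma). Treated RNA on Cy3 averaged 0.55 and on Cy5 1.21, and the rank on single arrays ran from 1392 on array 1 to 41 on array 4. The call ended with arrays centred on their medians (adjusted p = 0.0897 in limma), without array 1 (0.06581), without array 3 (0.1131) and without array 4 (0.05674). Fits without 1 array also changed the test, since they took the others as separate arrays with a dye term. Their values weigh the dye orientations equally. With all 4 arrays that fit passed FMP45 (adjusted p = 0.03201 in limma).

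SUR7 (YML052W), the gene of the tetraspan protein that gave the family its name and whose product marks MCC patches, lay on the other side. Its log2 ratio was -0.53 on array 1, -0.46 on array 2, -0.92 on array 3 and -0.32 on array 4. All 4 arrays lay opposite to SLT2, with array 3 farthest. The mean was -0.55 ± 0.26 (SD of 4 arrays, n = 2 cultures), a 1.47-fold difference (95% interval -0.83 to -0.27, adjusted p = 0.03491 in limma), and SUR7 stood 60th from the lowest of 4543 ORFs. No array of SUR7 overlapped any array of PUN1 or FMP45, so members of 1 family lay on both sides. The SUR7 call ended with arrays centred (adjusted p = 0.06096 in limma), without array 2 (0.1053), without array 3 (0.06659) and without array 4 (0.06331). The fit of separate arrays with a dye term, used where an array was left out, passed SUR7 with all 4 arrays (adjusted p = 0.02256 in limma).

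**Figure D2:**
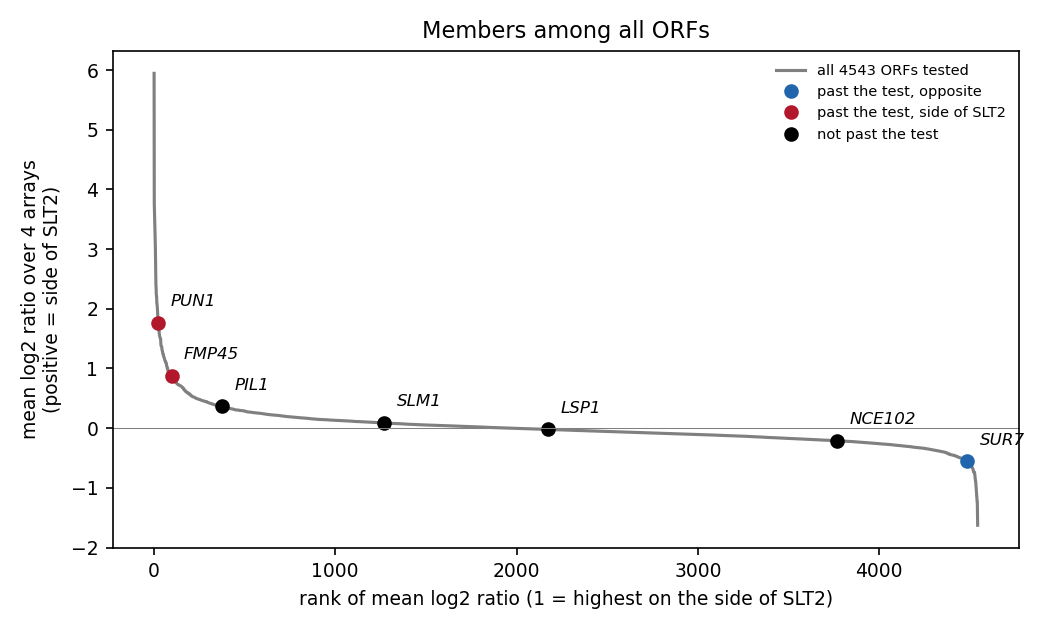
Mean log2 ratio over 4 arrays (vertical axis, positive on the side of SLT2) of all 4543 ORFs tested, in order of rank (grey line), with the 7 tested members as points coloured by call. PUN1 is at rank 23, FMP45 at rank 97 and SUR7 60th from the lowest, and the other 4 lie between them.

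The coat genes PIL1 and LSP1 encode near relatives that assemble together on the membrane. PIL1 (YGR086C), whose loss is known to collapse eisosomes into remnants, had log2 ratios of 0.45, 0.39, 0.26 and 0.36 on arrays 1 to 4. All 4 were small, positive and close to one another, whichever dye carried treated RNA. The mean was 0.36 ± 0.078 (SD of 4 arrays, n = 2 cultures) with a 95% interval of 0.084 to 0.64, and it did not pass after adjustment (adjusted p = 0.1384 in limma). It did pass with arrays 1 and 4 and arrays 2 and 3 taken as the cultures (adjusted p = 0.005508) and in a fit of 4 separate arrays with a dye term (0.04394).

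LSP1 (YPL004C) had log2 ratios of 0.14 on array 1, 0.12 on array 2, -0.24 on array 3 and -0.10 on array 4. Arrays 1 and 2 were positive and arrays 3 and 4 negative, and the mean was -0.021 ± 0.18 (SD of 4 arrays, n = 2 cultures) with a 95% interval of -0.32 to 0.28. The difference of PIL1 minus LSP1 in log2 ratio was 0.31, 0.26, 0.50 and 0.46 on arrays 1 to 4, so PIL1 lay nearer to the side of SLT2 on each array. Its mean was 0.38 ± 0.12 (SD, n = 4 arrays), with an adjusted p of 0.25 over the 2 pairs that could be compared, in an exact two-sided sign-flip permutation test whose raw p was the smallest that 4 arrays can give. These arrays come from 2 cultures and are not 4 independent samples.

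NCE102 (YPR149W) encodes a tetraspan protein that is known to respond to sphingolipid supply and to be needed for the furrows. Its log2 ratio was -0.24 on arrays 1 and 2, -0.38 on array 3 and 0.0086 on array 4. It was negative on 3 arrays and near 0 on array 4, with a mean of -0.21 ± 0.16 (SD of 4 arrays, n = 2 cultures) and a 95% interval of -0.49 to 0.063 (adjusted p = 0.3939 in limma).

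SLM1 and SLM2 encode paired proteins that bind the membrane lipid phosphatidylinositol bisphosphate, and they are known to leave eisosomes under membrane stress and to carry the kinase Ypk1 to the TOR complex TORC2. For SLM1 (YIL105C) the arrays that had treated RNA in Cy3 gave log2 ratios of 0.40 (array 1) and 0.37 (array 3). Those that had it in Cy5 gave -0.18 (array 2) and -0.24 (array 4). The dye orientations did not overlap and had opposite signs, so the mean of 0.085 ± 0.34 (SD of 4 arrays, n = 2 cultures) averages opposite readings and does not show that SLM1 was unchanged (95% interval -0.19 to 0.36, adjusted p = 0.7802 in limma). Such a division by dye on all 4 arrays was seen in 21.3% of the ORFs tested, and SLM1 was the 1 member that had it.

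SLM2 (YNL047C) had -0.37 on array 1, 0.14 on array 2 and 0.010 on array 4, and no value on array 3. Signs were mixed, and a fit to ORFs with at least 3 values gave -0.15 with a dye term and adjusted p = 0.4561 in limma, array 3 being absent for SLM2. The difference SLM1 minus SLM2 was 0.77, -0.32 and -0.25 on arrays 1, 2 and 4 (mean 0.066 ± 0.61, SD of 3 arrays; p = 1 in the exact sign-flip permutation test, where 3 arrays cannot go below 0.25). The remaining pairs, NCE102 with FHN1 and FMP45 with YNL194C, could not be compared.

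Around the members, 55 genes of the same compartment and of the pathways known to act on it were listed by function, and 42 of them had values on 4 arrays. On the side of SLT2 4 of the 42 passed the test and 0 opposite to it, with a median log2 ratio of 0.022. The background shares of 4.56% and 1.39% given above hold for these counts and for the count of each list below. With only 4 calls no more is read from any of them.

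**Figure D3:**
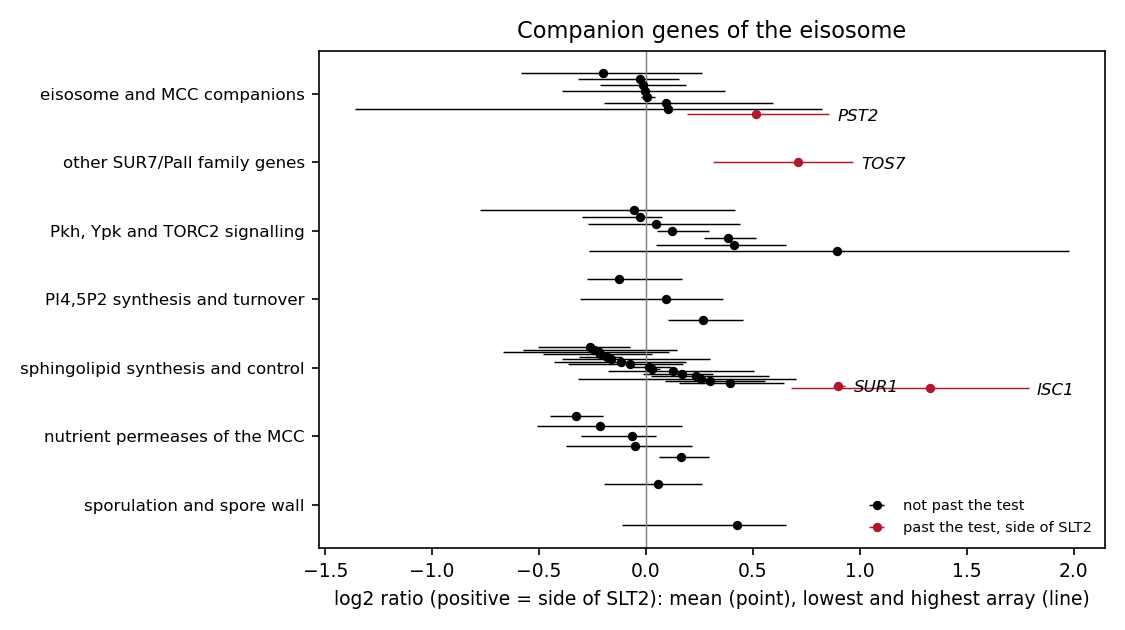
Log2 ratio (horizontal axis, positive on the side of SLT2) of the tested genes of 7 lists, with the mean as a point and a line from the lowest to the highest array, red where limma's adjusted p was under 0.05. PST2, TOS7, SUR1 and ISC1 are the 4 genes past the test, and most other genes have means near 0.

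Of the 8 tested companions of the eisosome and MCC 1 passed, beside 5.94% of all ORFs tested. It was PST2 (YDR032C), which encodes a flavodoxin-like protein found at the MCC. Its log2 ratio was 0.86, 0.19, 0.53 and 0.48 on arrays 1 to 4 (mean 0.51 ± 0.27, SD of 4 arrays, n = 2 cultures, adjusted p = 0.04527 in limma). All 4 arrays lay on the side of SLT2, and the call ended with arrays centred (adjusted p = 0.05959) and without any 1 of the 4 arrays (0.05605 to 0.1711). The eisosome gene EIS1 divided by dye as SLM1 did, with 0.37 and 0.35 in the Cy3 orientation (arrays 1 and 3) and -0.34 and -0.39 in the other, and it was singled out after its values were seen. The median of the list was -0.0001, but EIS1 entered it with a mean of -0.0038 that averages opposite readings. SEG1 of the list ran from -1.36 on array 1 to 0.82 on array 4, and it too was named after its values were seen.

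TOS7 (YOL019W), a further gene of the wider SUR7 and PalI family, was the 1 gene of 3 in that list with values on 4 arrays. Its log2 ratio was 0.31 on array 1, 0.97 on array 2, 0.74 on array 3 and 0.83 on array 4, with array 1 lowest. The mean of 0.71 ± 0.28 (SD of 4 arrays, n = 2 cultures) passed the test (adjusted p = 0.01173 in limma). DCV1 of the same list had values on 3 arrays only (0.13, -0.042 and -0.0035 on arrays 1, 3 and 4) and was not tested, and RIM9 had none. With PUN1, FMP45 and SUR7, TOS7 makes 4 tested genes among those of the wider family that were followed or listed here. Of these, 3 were past the test on the side of SLT2 and 1 opposite, beside shares of 4.56% and 1.39% over all ORFs tested. The genes were chosen with earlier results of these data known, and the family was not searched for further genes.

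The Pkh, Ypk and TORC2 list, which holds the kinases known to phosphorylate the coat and to act below the Slm proteins, had 0 of 7 past the test in limma. Over all ORFs tested 5.94% passed, so 0 calls in a list this small says little. The highest gene tested was YPK2, with -0.27, 0.44, 1.43 and 1.98 on arrays 1 to 4 (mean 0.90 ± 1.00, SD of 4 arrays, adjusted p = 0.147 in limma). Array 1 was negative while array 4 was the highest, so the arrays differed by more than the mean. YPK2 passed without array 2 (1.28, adjusted p = 0.02477 in limma) and where array 1 was paired with array 4 (7.943e-06). The latter setting called 598 ORFs on the side of SLT2, against 207. In the fits without 1 array, which weigh the dye orientations equally, YPK2 had 0.47 without array 3 and 0.51 without array 4. The lowest gene tested was PKH3 (mean -0.058 ± 0.51), while TSC11, with values on 3 arrays only, had a mean of -0.21 and was not tested. Genes that make or degrade phosphatidylinositol bisphosphate had 0 of 3 past the test, from the kinase gene MSS4 (mean -0.13 ± 0.20) to the phosphatase gene INP51 (mean 0.27 ± 0.15), which passed in limma only where array 1 was paired with array 4 (adjusted p = 0.03485).

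Of 18 tested genes of sphingolipid synthesis and control, 2 passed on the side of SLT2, beside 4.56% of all ORFs tested. ISC1 (YER019W), which encodes the phospholipase that releases ceramide from inositol sphingolipids, had 1.43, 0.68, 1.79 and 1.43 on arrays 1 to 4. It was positive on every array and lowest on array 2, with a mean of 1.33 ± 0.47 (SD of 4 arrays, n = 2 cultures, adjusted p = 0.001554 in limma). SUR1 (YPL057C), which encodes a catalytic subunit of mannosyl inositolphosphorylceramide synthase, had 0.93, 0.88, 0.91 and 0.87 on arrays 1 to 4. These differed by less than 0.1 between arrays, and the mean was 0.90 ± 0.027 (SD of 4 arrays, n = 2 cultures, adjusted p = 0.003177 in limma). The other 16 did not pass, and the median of the list was 0.022.

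Nutrient permeases known to gather in the MCC had 0 of 5 past the test in limma, beside 5.94% of all ORFs tested. FUR4, the uracil permease gene, was lowest with -0.45, -0.21, -0.45 and -0.20 on arrays 1 to 4 (mean -0.33 ± 0.14, SD of 4 arrays, adjusted p = 0.176 in limma), negative on each array. It passed with a dye term on 4 separate arrays (adjusted p = 0.04942 in limma) and where array 1 was paired with array 4 (0.009357). Opposite to SLT2 those settings called 193 and 631 ORFs, against 63. MUP1, a methionine permease gene, was highest with a mean of 0.16 ± 0.099. FMP45 is known from sporulation, so genes of that other cell state were listed beside it. Of 16 such genes 11 had no value on any array, 2 were tested and 0 passed, with GAS2 at 0.43 ± 0.37 and DMC1 at 0.058 ± 0.23 (SD of 4 arrays). GAS2 passed in limma without array 3 (0.62, adjusted p = 0.04067), with robust empirical Bayes (0.01461) and where array 1 was paired with array 4 (0.005315). On the side of SLT2 those settings called 196, 358 and 598 ORFs, against 207. In the fit without array 1, which weighs the dye orientations equally, GAS2 had 0.23. Whether any sporulating cells bear on the FMP45 ratio was not tested.

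The profile of PUN1 over the 4 arrays was set against all other tested ORFs by Euclidean distance, as a description of likeness in level and not in order across arrays. The 5 nearest were YDL023C at a distance of 0.56, SMF1 at 0.59, GPP2 at 0.61 and GFA1 and MSC1 at 0.62. Their closeness to PUN1 follows from how they were chosen. PUN1 was highest on array 3, GPP2 on array 1 and the other ORFs of the 5 on array 2. SMF1 encodes a manganese transporter, GPP2 a glycerol phosphatase and GFA1 the first enzyme of the glucosamine route. The mean log2 ratios of the 5 were 1.96 ± 0.16, 2.01 ± 0.10, 1.63 ± 0.14, 1.54 ± 0.071 and 1.64 ± 0.20 in the order of distance. By its ORF name YDL023C lies next to GPD1 (YDL022W), which had a mean of 2.20 (adjusted p = 3.038e-05 in limma). Sharing of signal between YDL023C and GPD1 was not tested, and GPD1 was named after its values were seen.

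**Figure D4:**
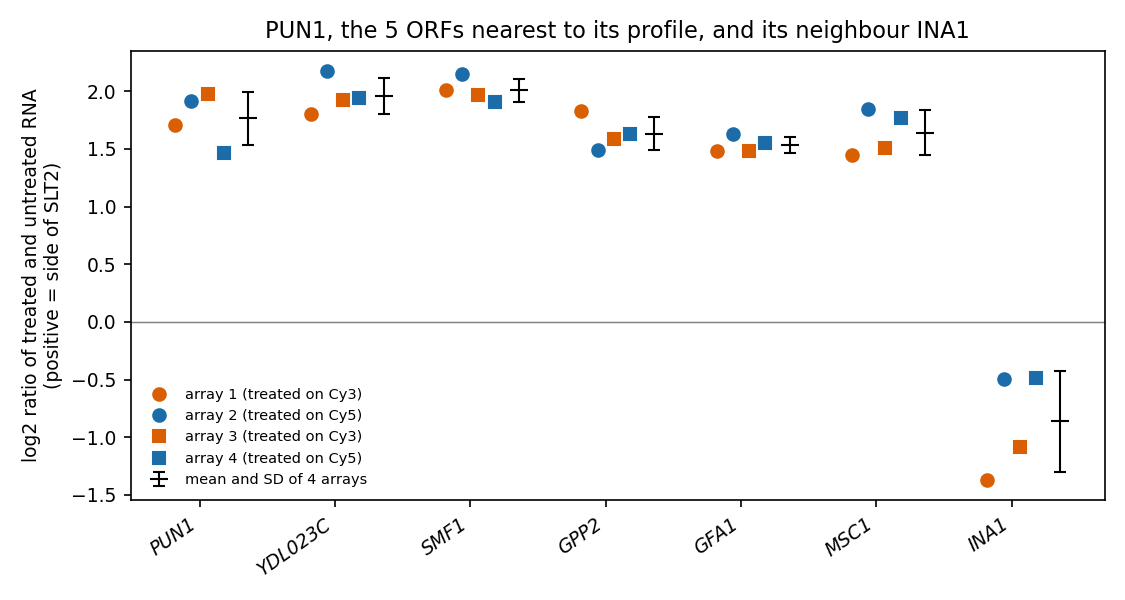
Turned log2 ratio (vertical axis, positive on the side of SLT2) on each array for PUN1, the 5 ORFs nearest to its profile and INA1, the ORF next to PUN1, coloured by the dye of treated RNA, with the mean and SD of 4 arrays. The 5 ORFs were chosen by distance on these same values, and with PUN1 they lie between 1.45 and 2.17 on all arrays. INA1, named after its values were seen, lies between -1.37 and -0.49.

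The ORFs next to each member in the R64 gene order were looked at because the probes are unknown and close ORFs could share signal. Over all ORFs tested 4.56% passed on the side of SLT2 and 1.39% opposite to it, so a count over this few neighbours says little. Of 20 such neighbours 16 were tested, 0 passed on the side of SLT2 and 1 passed opposite to it. That was INA1 (YLR413W), the ORF beside PUN1 on the other strand, with -1.37, -0.50, -1.08 and -0.49 on arrays 1 to 4. Its mean was -0.86 ± 0.44 (SD of 4 arrays, n = 2 cultures, adjusted p = 0.004454 in limma), so PUN1 and its neighbour passed on opposite sides. HBT1, beside FMP45, had 0.40, 0.40, 0.44 and 0.88 on arrays 1 to 4 (mean 0.53 ± 0.24) and missed the threshold (adjusted p = 0.05191 in limma), but it passed in 6 of the 13 alternatives, among them the fits of 4 separate arrays with (0.03124) and without (0.04949) a dye term. Array 4 was the highest for both FMP45 and HBT1, and sharing of signal between them was not tested. INA1 and HBT1 were named after their values were seen.

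**Figure D5:**
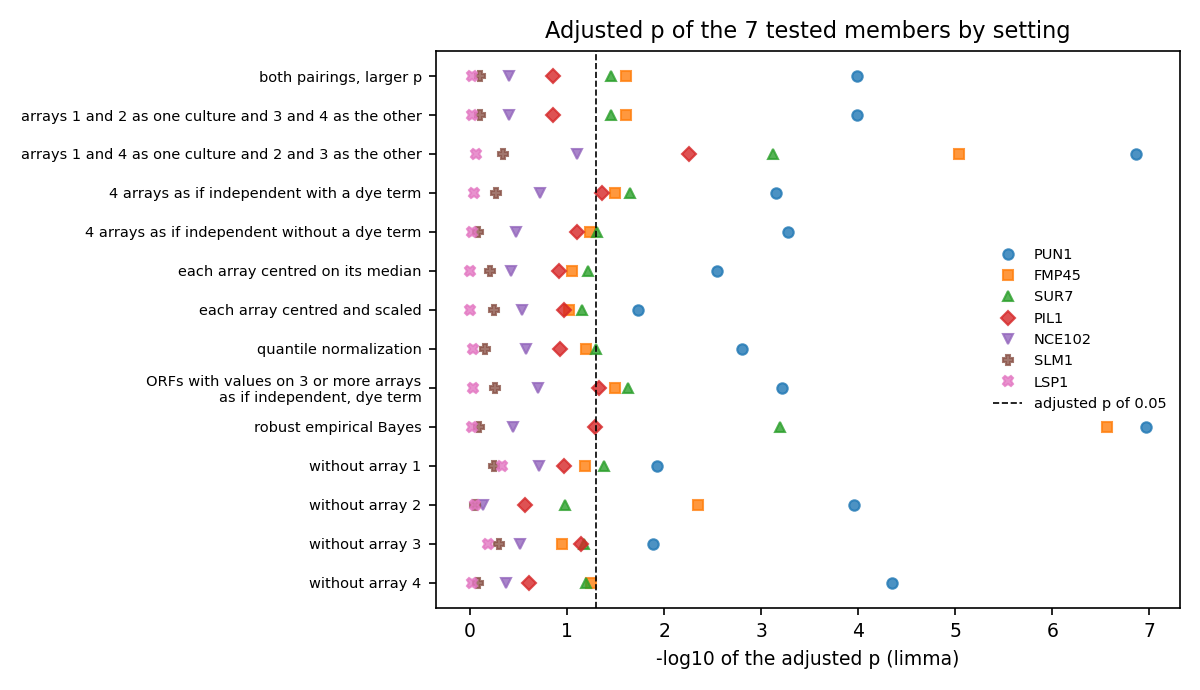
The -log10 of limma's adjusted p (horizontal axis) for the 7 tested members under each of 14 settings (vertical axis), the first being the test reported here, with a dashed line at 0.05. PUN1 lies past the line in every setting, FMP45, SUR7 and PIL1 lie on both sides of it, and LSP1, NCE102 and SLM1 lie short of it in every setting.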

How the data were processed

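The authors deposited 1 table of log ratios of the channels (4 arrays, 6209 rows, 2 of them control rows left out), which was read as log2. How they were normalized or background-corrected, their base and numerator, and the genome build: none is given in the sources used here. Deposited values of opposite dye orientation correlated at r = -0.54 to -0.094 across ORFs, so arrays were turned by their labelled dyes, then signed by SLT2 after its values were seen. Names came from the RefSeq R64 table, which matched 10 of 10 members.

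The test was limma 3.58.1 in R 4.3.3 on 4543 ORFs with 4 values, with the arrays of a culture averaged (n = 2), both pairings fitted and the larger p kept. With 2 averages per gene, limma's empirical Bayes step draws on the variance of the other ORFs. The p values and intervals therefore do not measure a gene's own spread alone, and the SDs over 4 arrays did not enter the test. Intervals are those of the pairing with the wider one. The code was tested on simulated data. Members and lists were chosen with earlier results of these data known. Named genes are all members, the genes past the test in each list or else its highest and lowest, and the 5 ORFs nearest to PUN1. No sequences were used here.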

Additional observations from a re-analysis of the deposited data

Results flagged for a closer look

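Of the 74 genes checked, 4 had a single array well apart from the rest, and none of them is a member. TOR2 had 0.30 on array 1 and 0.054 to 0.080 elsewhere. LST8 had -0.30 on array 3 and 0.042 to 0.074 elsewhere. LCB2 had 0.067 on array 2 and 0.014 to 0.017 elsewhere. HBT1 had 0.88 on array 4 and 0.40 to 0.44 elsewhere. About 1 in 20 sets of 4 values would be marked so by chance.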

How the results depend on the processing

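PUN1 kept its side and its call in each of 13 alternatives (1.65 to 1.88), and LSP1, NCE102 and SLM1 passed in none of them. On the side of SLT2 the member count was 1 instead of 2 in a fit of 4 separate arrays without a dye term, with arrays centred, with arrays centred and scaled and with quantile normalization, and 1 to 2 without 1 array. Over all ORFs tested the calls on that side were 208, 166, 147 and 181 in these settings, and 151 to 196 without 1 array, against 207. FMP45 was the member lost, at 0.88 (adjusted p = 0.05739 in limma), 0.90 (0.0897), 0.91 (0.09515) and 0.85 (0.06337), and 0.67 to 1.09 without 1 array. The count opposite was 0 instead of 1 in the 3 scalings, where SUR7 had -0.53 (adjusted p = 0.06096 in limma), -0.55 (0.06931) and -0.63 (0.05025), and 0 to 1 without 1 array (SUR7 -0.65 to -0.46). Over all ORFs tested the calls opposite were 27, 19 and 60 in the 3 scalings, and 39 to 60 without 1 array, against 63. PIL1 passed at the same 0.36 with arrays 1 and 4 as a culture, with a dye term, and with ORFs of 3 or more values (adjusted p = 0.04667). Without 1 array LSP1 had -0.12 to 0.074 and turned positive without array 3 (0.074) or array 4 (0.035). Also turned were EIS1 with arrays centred (0.016), with scaling (0.014), without array 3 (0.0011) and without array 4 (0.0086), over a range of -0.016 to 0.0086 without 1 array, PKH3 (-0.29 to 0.18 without 1 array; 0.18 without array 1, 0.054 without array 2) and DMC1 (-0.056 to 0.17; -0.024 without array 1, -0.056 without array 2). Values without 1 array weigh the dye orientations equally and are not plain means, which can differ in sign. For PKH3 without array 2, array 4 (0.42) alone stood against -0.77 and 0.16 on arrays 1 and 3. SLM1 minus SLM2 was -0.29 without array 1, here as a plain mean of the arrays left. The companion count on the side of SLT2 was 11 with arrays 1 and 4 as a culture, 7 with robust empirical Bayes and 2 with scaling, against 4, and the count opposite was 3 and 1, against 0, in the first of these and with a dye term. Calls over all ORFs tested moved as well. On the side of SLT2 they were 598, 358 and 147 in the same order, against 207. Opposite to it they were 631 with arrays 1 and 4 as a culture and 193 with a dye term, against 63. With scaling TOS7 (adjusted p = 0.0549 in limma) and PST2 (0.06663) missed the threshold, and PST2 also did without a dye term (0.06666). The causes were not tested. Fits without 1 array took the others as independent with a dye term, and in that fit 4 arrays passed FMP45, SUR7 and PIL1. Each ratio already sets treated against untreated RNA of the same culture, and both possible pairings of arrays into cultures were fitted, so no further replicate block was added.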
